A study of Mus musculus with 7 samples.

Results

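The cadherins and protocadherins on these arrays were taken as every gene whose symbol is Cdh or Pcdh followed by a number, with the letter of a protocadherin cluster allowed before it, and which a probe set naming a single gene measures. This gave 47 of the 12393 named genes: 17 cadherins, 22 members of the protocadherin beta cluster and 8 other protocadherins. No gene of the alpha or gamma cluster is measured by a probe set of its own. Each gene was represented by its brightest probe set over the 7 arrays, and all 47 symbols matched a RefSeq gene.

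Cadherins are calcium-dependent adhesion molecules that bind the same or a related cadherin on the neighbouring cell. Type I and type II cadherins hold cells together through catenins, which tie their cytoplasmic tails to actin. Protocadherins have a similar outer part but other tails, and do not bind catenins in that way. The clustered protocadherins are switched on gene by gene, so that cells of the nervous system carry different combinations on their surface, while the single protocadherins and the type II cadherins mark regions and layers of the developing brain.

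RNA came from brain tumours raised by cerebral injection of RCAS PDGFB GFP, on days 1 to 3 after birth, into mice of a mixed C57/BL6 and FVB/N background. RCAS is an avian retroviral vector that enters only cells with its receptor tv-A, which Nestin-tvA mice express in neural progenitors. It carried platelet-derived growth factor B and green fluorescent protein, and cells were collected once symptoms appeared or when 12 weeks had passed. Living fluorescent cells (GFP+ DAPI-) were sorted after papain digestion. All animals, controls included, were p16-/- and so without a brake on the cell cycle that the Cdkn2a locus encodes. Ptprd, a tyrosine phosphatase that spans the membrane and takes part in forming synapses, set the groups apart. There were 2 arrays of Ptprd+/+ (wild type), 2 of Ptprd+/- (heterozygous) and 3 of Ptprd-/- (null) tumours. The labels call them biological replicates and do not say whether an array holds 1 mouse or a pool. The p-values here set a group difference against the spread between arrays of a genotype, and that spread may be technical.

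The values are log2 expression, and a difference of 1 is a 2-fold change. A gene was tested where 2 or more arrays gave it a signal over their 30th percentile, and it is said to have changed where the adjusted p from limma was under 0.05 (Benjamini-Hochberg over the 9243 genes that passed). Ptprd read 10.86 and 10.89 in wild type, 9.42 and 9.57 in heterozygous and 9.61, 8.95 and 9.93 in null tumours, so the null arrays spanned the heterozygous ones. The differences from wild type were -1.37 in heterozygous (adjusted p = 0.0311) and -1.37 in null tumours (adjusted p = 0.882). Whether the Ptprd probes lie in the deleted part is not given in the sources used here. The heterozygous arrays stood apart from the others: they correlated with wild-type and null arrays at 0.976 to 0.987 across probe sets, and the remaining pairs of arrays at 0.990 to 0.995. Heterozygous array 1 and null array 1 carried both Xist (log2 11.16 and 12.73) and the Y-linked Eif2s3y (9.28 and 8.69) at high signal. Eif2s3y alone was high on wild-type array 1 and null array 2. Xist alone was high on wild-type array 2, heterozygous array 2 and null array 3. The sex signals thus differed within each genotype, and their part was not tested. The counts of called members and the differences of the members called are given with and without heterozygous array 1 and null array 1.

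Of the 47 genes, 30 were tested: 10 cadherins, 13 of the beta cluster and 7 other protocadherins. The other 17 stayed below the filter, 15 of them on all 7 arrays and Cdh8 and Pcdhb14 above it on 1 array each. Among them were Cdh1, the epithelial E-cadherin, with log2 values between 2.86 and 3.66, and Cdh5, the adhesion molecule of endothelium, between 3.51 and 4.37. The rest were Cdh8, Cdh9, Cdh16, Cdh17, Cdh23, Pcdh12 and the beta-cluster genes Pcdhb1, Pcdhb4, Pcdhb6, Pcdhb11, Pcdhb13, Pcdhb14, Pcdhb15, Pcdhb16 and Pcdhb18. Differences between groups were not tested for these genes. Of the tested genes, 28 were above the filter on all 7 arrays, the exceptions being Cdh3 on 6 and Pcdh1 on 3, and the 6 genes that changed in a comparison were above it on all 7.

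Heterozygous tumours carried less of 5 of these genes than wild-type tumours, and none was higher past the threshold. The beta-cluster gene Pcdhb9 was 11.1-fold lower, Pcdh8 3.50-fold, Pcdh20 2.35-fold, Pcdh15 1.75-fold and the type II cadherin Cdh11 1.5-fold. Between null and wild-type tumours 0 members passed the threshold, and against heterozygous tumours 5 members were higher: Pcdhb9, Pcdh8, Pcdh20, Cdh10 and Pcdh15. Among all genes tested, 5.95% were lower and 4.20% higher in heterozygous than in wild-type tumours. The 5 of 30 members lower lie above that share and the 0 higher below it, and no test of this contrast with other genes was made. In RNA pooled over many cells, fewer cells of a type and less RNA per cell cannot be told apart.

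**Figure D1:**
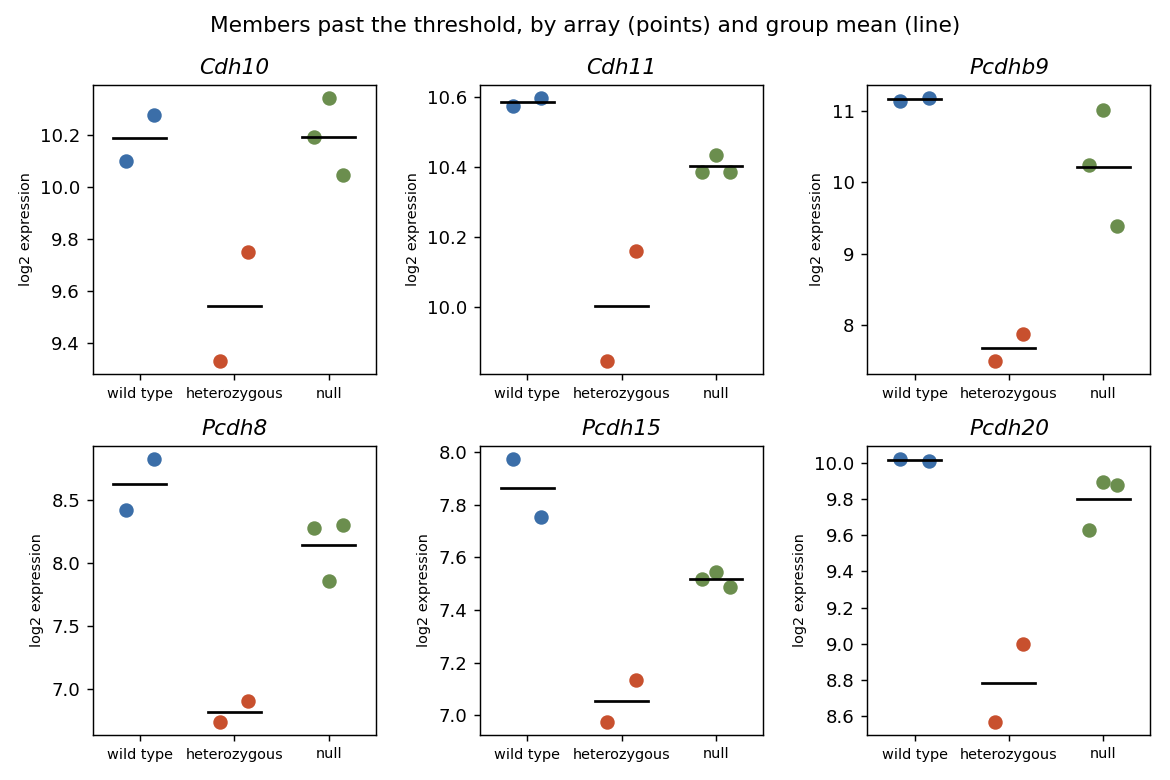
Log2 expression (vertical axis, a separate scale in each panel) of the 6 members that changed in at least 1 comparison, by genotype (horizontal axis). Each point is 1 array and each line a group mean; the 2 heterozygous arrays lie below all 5 others in every panel, and for Pcdhb9 the 3 null arrays spread from 9.39 to 11.02.

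Of the 7 single protocadherins tested, 3 fell in heterozygous tumours, where 5.95% of all genes tested fell. They are Pcdh8, also called arcadlin, which neurons make in response to activity and which draws N-cadherin from the surface, Pcdh20, a protocadherin of the developing brain, and Pcdh15, which forms the lower part of the tip link of sensory hair cells together with Cdh23. RefSeq gives a promoter window for 14 of the 47 genes. Of the members that changed in a comparison, the 250 bases before the start are shown for Pcdh8, Pcdh20, Pcdh15 and Cdh10. Cdh10 is described with the cadherins below, and no window is shown for Pcdhb9 or Cdh11. The sequences are from GRCm38.p6, each 5′ to 3′ on the strand of its gene. Capitals mark the E-box CANNTG, the core bound by Snail, Zeb and basic helix-loop-helix factors, and the TATA box TATAAA.
Pcdh8 (chr14:79771313-79771562, minus strand): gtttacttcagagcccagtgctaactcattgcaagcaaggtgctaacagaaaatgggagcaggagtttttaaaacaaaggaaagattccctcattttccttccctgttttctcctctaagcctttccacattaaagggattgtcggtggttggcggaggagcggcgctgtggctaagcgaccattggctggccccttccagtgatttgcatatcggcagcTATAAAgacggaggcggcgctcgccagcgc
Pcdh20 (chr14:88471397-88471646, minus strand): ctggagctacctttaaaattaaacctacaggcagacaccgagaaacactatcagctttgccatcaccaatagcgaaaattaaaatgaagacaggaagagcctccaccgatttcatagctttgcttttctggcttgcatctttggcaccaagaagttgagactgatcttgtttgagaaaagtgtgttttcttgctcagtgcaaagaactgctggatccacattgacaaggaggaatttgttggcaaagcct
Pcdh15 (chr10:73821617-73821866, plus strand): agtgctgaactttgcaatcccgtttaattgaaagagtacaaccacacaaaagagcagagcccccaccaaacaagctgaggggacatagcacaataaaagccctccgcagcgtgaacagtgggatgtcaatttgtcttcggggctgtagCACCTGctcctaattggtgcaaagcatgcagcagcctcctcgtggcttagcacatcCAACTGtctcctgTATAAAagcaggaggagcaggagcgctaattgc
Cdh10 (chr15:18820079-18820328, plus strand): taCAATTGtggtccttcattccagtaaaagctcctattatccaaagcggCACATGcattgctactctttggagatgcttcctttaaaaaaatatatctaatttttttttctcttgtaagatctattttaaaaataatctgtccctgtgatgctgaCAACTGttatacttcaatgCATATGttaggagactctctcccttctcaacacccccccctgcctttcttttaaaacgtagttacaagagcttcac

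Both strands were searched, with overlapping matches counted. The window of Cdh10 held 4 E-boxes, that of Pcdh15 held 2, and those of Pcdh8 and Pcdh20 held 0. CANNTG occurs in 66.2% of the 32851 promoter windows of this length. TATAAA stood 30 bases before the start of Pcdh8 and 33 before that of Pcdh15, and in 12.4% of all windows at any place. CG, the target of DNA methylation, occurred 11 times for Pcdh8, 6 times for Pcdh15, 3 times for Pcdh20 and 2 times for Cdh10, against a median of 6 per window and with 92.1% of windows holding at least 1. TTCNNNGAA, the motif of STAT factors, was in none of the 4 windows and is in 7.02% of all. The E-box, the TATA box and the STAT motif were each missing from at least 1 of the 4 windows, while CG was in all 4. These arrays hold no measurement of binding or methylation at them.

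Pcdh8 read 8.42 and 8.83 on the wild-type arrays, 6.74 and 6.90 on the heterozygous arrays and 8.28, 7.85 and 8.30 on the null arrays. The heterozygous arrays were lowest, with no overlap, and all 3 null arrays lay below both wild-type arrays. The fall from wild type to heterozygous was -1.81 (SE 0.20, adjusted p = 0.00730), and null tumours were higher than heterozygous ones by 1.32 (SE 0.18, adjusted p = 0.0127). Null minus wild type was -0.48 (95% interval -0.91 to -0.05, adjusted p = 0.882), so null tumours lay 26.6% of the way from wild type to heterozygous. Leaving out wild-type array 2 raised the adjusted p of the fall to 0.0641, and leaving out heterozygous array 1 that of the null difference to 0.0996.

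Pcdh20 read 10.02 and 10.01 in wild type, 8.57 and 9.0 in heterozygous and 9.63, 9.89 and 9.88 in null tumours. The 3 groups did not overlap, and null lay close below wild type. Heterozygous minus wild type was -1.23 (SE 0.17, adjusted p = 0.0110) and null minus heterozygous 1.02 (SE 0.15, adjusted p = 0.0154). Null minus wild type was -0.22 (95% interval -0.58 to 0.14). A second probe set of Pcdh20 gave -1.25 (SE 0.22, adjusted p = 0.0307) for heterozygous against wild type and 0.78 (adjusted p = 0.0799) for null against heterozygous, in a fit of every probe set. The fall lost its call without wild-type array 1 or 2, and the null difference without heterozygous array 1 or null array 3, with adjusted p of up to 0.0950 and 0.0889.

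Pcdh15 read 7.97 and 7.75 in wild type, 6.98 and 7.13 in heterozygous and 7.52, 7.54 and 7.49 in null tumours. Here the null arrays agreed to within 0.1 of each other and lay between the other groups, 42.9% of the way from wild type to heterozygous. Heterozygous minus wild type was -0.81 (SE 0.12, adjusted p = 0.0129) and null minus heterozygous 0.46 (SE 0.11, adjusted p = 0.0459). Null minus wild type was -0.35 (95% interval -0.60 to -0.09, adjusted p = 0.882). The fall lost its call without wild-type array 1, wild-type array 2 or heterozygous array 1 (adjusted p up to 0.0798), and the null difference without any 1 of the 7 arrays (0.0629 to 0.252). Cdh23, the partner of Pcdh15 in hair cells, was below the filter on all 7 arrays.

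The remaining single protocadherins did not change in any comparison. Pcdh10, which acts in the outgrowth of striatal axons, read 8.31 and 7.97 in wild type, 7.75 and 8.19 in heterozygous and 8.02, 8.17 and 8.18 in null tumours, and its groups overlapped. Its heterozygous minus wild-type difference was -0.17 (SE 0.18), and a second probe set gave 0.08. Without heterozygous array 1 the first probe set gave 0.055. Pcdh18, Pcdh1 and Pcdh7 had heterozygous minus wild-type differences of -0.37, -0.26 and 0.02, none of them called, and -0.37, -0.31 and -0.061 without heterozygous array 1. Pcdh1, Pcdh7, Pcdh8, Pcdh10 and Pcdh18 belong to the delta group, and Pcdh8 was the 1 of these 5 that changed.

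In the beta cluster, 1 gene fell in heterozygous tumours and 12 of the 13 tested did not pass the threshold. Over all genes tested, 5.95% fell. Pcdhb9 read 11.14 and 11.18 in wild type, 7.50 and 7.87 in heterozygous and 10.24, 11.02 and 9.39 in null tumours. The heterozygous arrays were more than 1.5 log2 units below the lowest other array. The 3 null arrays ranged from close to wild type to well below it, with an SD of 0.81 against 0.03 in wild type and 0.26 in heterozygous tumours. Heterozygous minus wild type was -3.48 (SE 0.45, adjusted p = 0.00974), and null minus heterozygous 2.53 (SE 0.41, adjusted p = 0.0191), a 5.79-fold difference. Null minus wild type was -0.95 (95% interval -1.92 to 0.03, adjusted p = 0.882), an interval that holds both no difference and a nearly 4-fold fall. It was -1.35 without null array 2 and -0.53 without null array 3. The heterozygous fall stayed between -3.67 and -3.29 as each array was left out, and lost its call without wild-type array 1, wild-type array 2 or heterozygous array 1 (adjusted p up to 0.0903). The null difference lost its call without heterozygous array 1 or null array 1 (up to 0.147).

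The fall did not extend evenly to the neighbours of Pcdhb9, and the genes lie in a row in numerical order. Pcdhb8, on 1 side, read 6.17 and 5.99 in wild type, 5.59 and 6.37 in heterozygous and 6.14, 6.14 and 6.36 in null tumours, a heterozygous minus wild-type difference of -0.10 (SE 0.24) that turned to 0.28 without heterozygous array 1. Pcdhb10, on the other side, read 8.18 and 8.06, then 7.37 and 7.80, then 7.90 on each of the null arrays. Its heterozygous arrays were below all others, and its difference of -0.54 (SE 0.15) did not pass the threshold (adjusted p = 0.0654) and was -0.33 without heterozygous array 1.

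**Figure D2:**
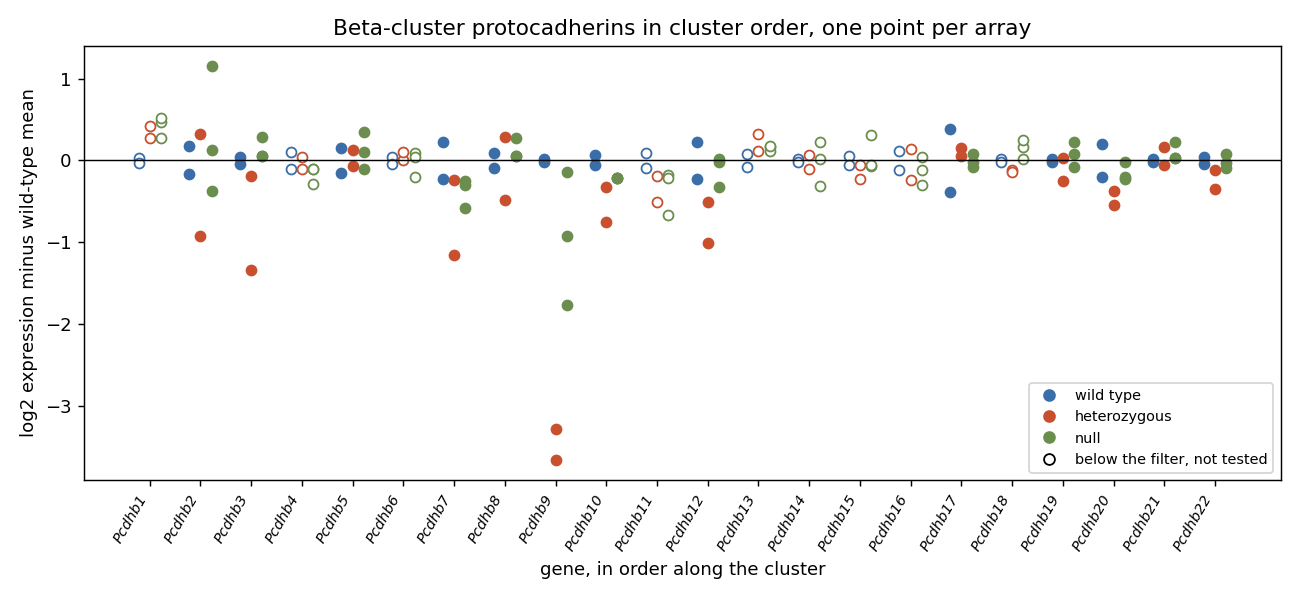
Log2 expression minus the wild-type mean (vertical axis) of the 22 beta-cluster genes in their order along the cluster (horizontal axis). Each point is 1 array and open points are genes below the filter; Pcdhb9 stands out with heterozygous arrays more than 3 units below wild type, while its neighbours Pcdhb8 and Pcdhb10 differ by -0.10 and -0.54.

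Some other beta-cluster genes differed mainly on heterozygous array 1. Pcdhb3 read 9.63 and 9.54 in wild type, 8.25 and 9.39 in heterozygous and 9.64, 9.64 and 9.87 in null tumours. Pcdhb7 read 9.70 and 9.24, then 8.31 and 9.23, then 8.89, 9.22 and 9.17. In both genes heterozygous array 1 was the lowest by a wide margin and heterozygous array 2 lay close to other groups, and their differences of -0.76 (SE 0.33) and -0.70 (SE 0.30) were not called. Without heterozygous array 1 they were -0.19 and -0.24. Pcdhb12 (-0.75, adjusted p = 0.0781) and Pcdhb20 (-0.46, adjusted p = 0.110) had both heterozygous arrays below all others and missed the threshold. They were -0.50 and -0.37 without heterozygous array 1. Pcdhb2 was the most variable after Pcdhb9 in its class, with 5.15 and 6.39 in the heterozygous and 5.69 to 7.23 in the null tumours, and its difference of -0.30 turned to 0.32 without heterozygous array 1. Pcdhb5, Pcdhb17, Pcdhb19, Pcdhb21 and Pcdhb22 had differences between -0.23 and 0.11, and between -0.12 and 0.16 without heterozygous array 1.

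The alpha cluster, outside the 47 genes, was read by probe sets that match up to 14 of its genes at once. One of 6 fell in heterozygous tumours, from 10.04 and 9.98 in wild type to 9.42 and 9.48, with 9.93, 9.85 and 9.99 in null tumours (difference -0.56, SE 0.10, adjusted p = 0.0302 in a fit of every probe set). It was higher in null than in heterozygous tumours by 0.47 (adjusted p = 0.0418). The other 5 did not pass, with differences between -0.60 and 0.06.

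Of the 10 cadherins tested, 1 fell in heterozygous tumours, against 5.95% of all genes tested. That was Cdh11, a type II cadherin of mesenchyme and neural tissue. It read 10.58 and 10.60 in wild type, 9.85 and 10.16 in heterozygous and 10.39, 10.44 and 10.39 in null tumours, with no overlap between the groups. Heterozygous minus wild type was -0.58 (SE 0.13, adjusted p = 0.0356), and null minus heterozygous 0.40 (SE 0.12, adjusted p = 0.0740; 0.24 without heterozygous array 1). The call held without heterozygous array 2 (difference -0.74) and was lost without any of the other 6 arrays, with adjusted p of up to 0.181 and a difference of -0.43 without heterozygous array 1.

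Cdh10, another type II cadherin, passed the threshold in the comparison of null with heterozygous tumours. It read 10.10 and 10.28 in wild type, 9.33 and 9.75 in heterozygous and 10.19, 10.34 and 10.04 in null tumours. Null and wild-type arrays overlapped fully, with group means of 10.19 each, and heterozygous arrays lay below them. Null minus heterozygous was 0.65 (SE 0.16, adjusted p = 0.0489), and heterozygous minus wild type -0.65 (SE 0.17), which missed the threshold (adjusted p = 0.0583) and was -0.44 without heterozygous array 1. The first call held without heterozygous array 2 (0.86) and was lost without any of the other 6 arrays (adjusted p up to 0.267).

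Cdh2, the N-cadherin that joins neural and glial cells, read 11.19 on both wild-type arrays, 10.64 and 10.89 in heterozygous and 11.08, 11.16 and 10.97 in null tumours. The groups did not overlap, and the difference of -0.42 (SE 0.13, adjusted p = 0.0764) missed the threshold. A second probe set of Cdh2 gave -0.30. Cdh13, or T-cadherin, which is anchored in the membrane by a lipid and has no tail, read 9.37 and 9.28, then 8.99 and 9.45, then 9.20, 9.22 and 9.47, with overlapping groups and a difference of -0.10 (SE 0.18) that was 0.13 without heterozygous array 1.

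The remaining tested cadherins did not change. Cdh6 and Cdh20, both type II, had heterozygous arrays below all others and differences of -0.56 (adjusted p = 0.145) and -0.42 (adjusted p = 0.157), which were -0.25 and -0.20 without heterozygous array 1. Cdh22 differed by 0.17 and the type I cadherins Cdh3, Cdh4 and Cdh15 by 0.17, -0.07 and 0.05. These were 0.41, 0.15, 0.040 and 0.073 without heterozygous array 1. Cdh3, the P-cadherin of epithelia, was the 1 tested member with both heterozygous arrays above both wild-type arrays, where 26.2% of all genes tested were. The median difference was -0.56 over the 5 type II and -0.01 over the 4 type I cadherins tested, against -0.04 over all genes tested. The medians were -0.25 and 0.057 without heterozygous array 1. With the filter set at the 50th percentile, which leaves out dimmer genes, the type I median was -0.24.

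**Figure D3:**
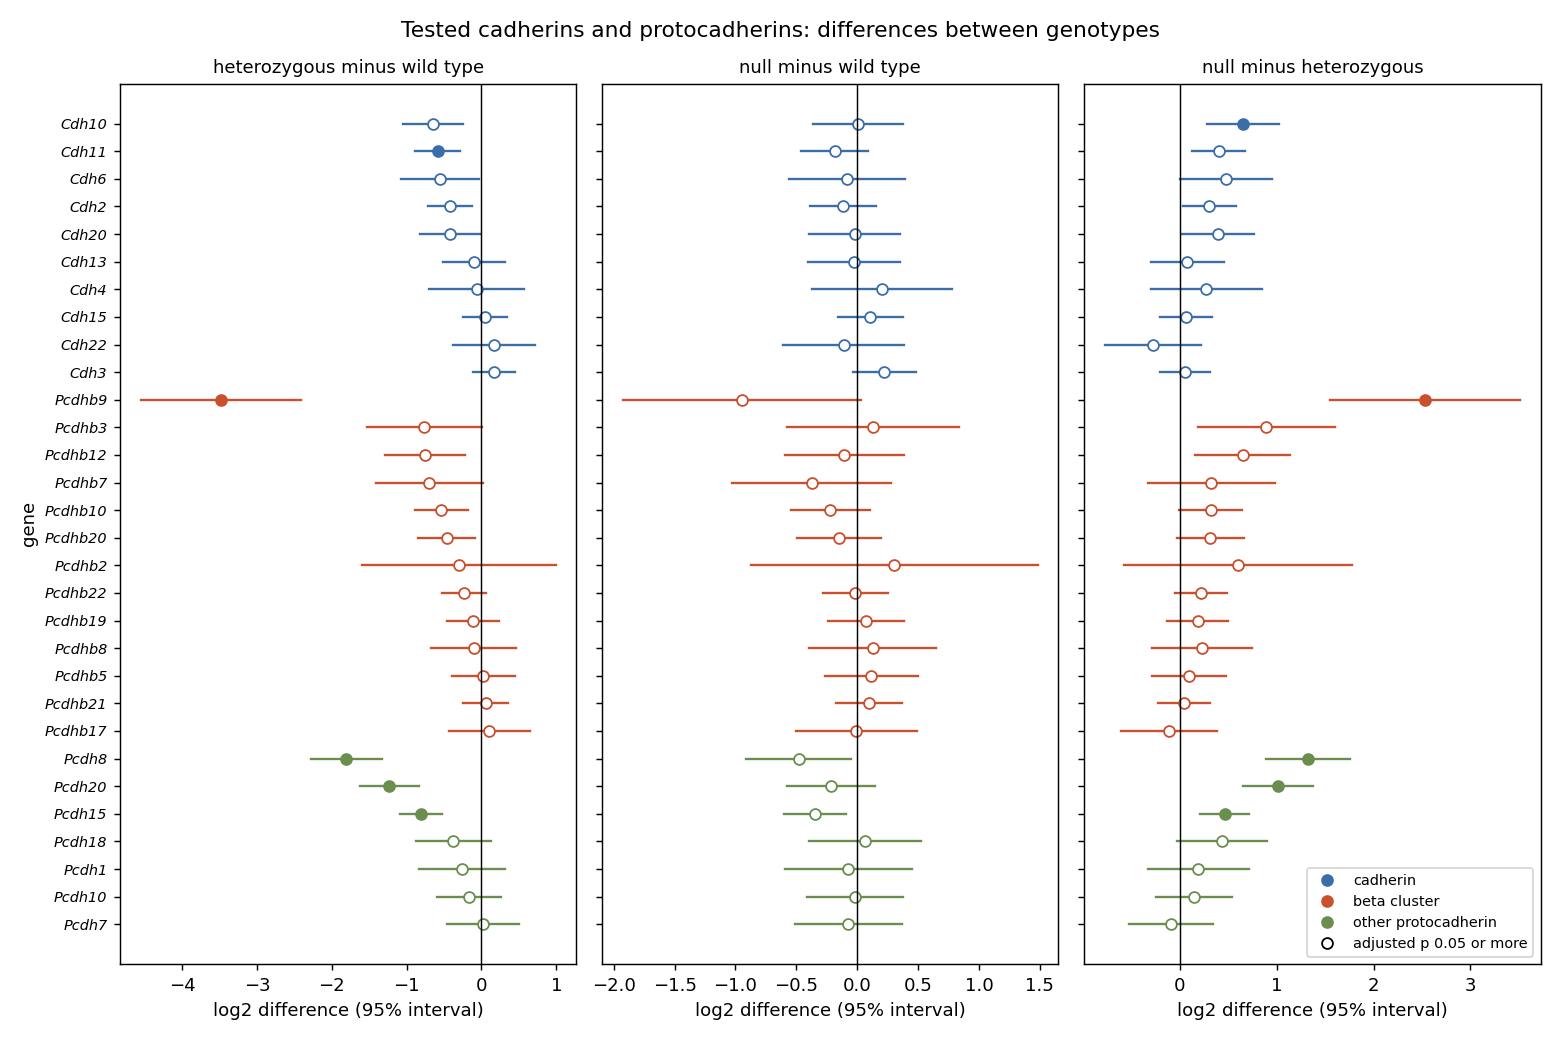
Log2 differences with 95% intervals (horizontal axes, scaled per panel) of the 30 tested members (vertical axis) for the 3 pairs of genotypes. Filled points have an adjusted p under 0.05: 5 lie below 0 for heterozygous minus wild type, 0 are filled for null minus wild type and 5 lie above 0 for null minus heterozygous.

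Over the members as a group, heterozygous minus wild type was below 0 for 23 of 30, where 55.1% of all genes were below 0, and the median was -0.34 against -0.04. Without heterozygous array 1, 18 were below 0, against 52.9% of all genes, and the median was -0.19. Both heterozygous arrays were below both wild-type arrays in 17 members, against 35.1% of genes. By class the medians were -0.26 for cadherins, -0.30 for the beta cluster and -0.37 for the other protocadherins. These medians depended on the filter. With no filter on dim genes they were -0.07 for cadherins and -0.12 for the beta cluster. With the filter at the 50th percentile they were -0.42, -0.50 and, for the other protocadherins, -1.02. The heterozygous arrays were both below all 5 others in 15 of the 30 members, 5 of 10 cadherins, 6 of 13 beta-cluster genes and 4 of 7 other protocadherins, where 22.3% of all genes were so placed. They were both above all others in 0 members, against 15.3% of genes. With limma, 12 members had an unadjusted p under 0.05, against 29.9% of genes.

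The 2 heterozygous arrays did not move equally. Array 1 was below array 2 in 27 of 30 members, against 55.1% of all genes, the exceptions being Cdh3, Pcdh1 and Pcdh7. The median size of their difference was 0.30 over members and 0.16 over all genes, and between the wild-type arrays 0.18 and 0.13. Heterozygous array 1 was below both wild-type arrays in 25 members and array 2 in 17, against 47.8% and 42.2% of all genes. For null arrays 1, 2 and 3 the counts were 15, 12 and 10, against 41.7%, 31.4% and 32.0%.

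**Figure D4:**
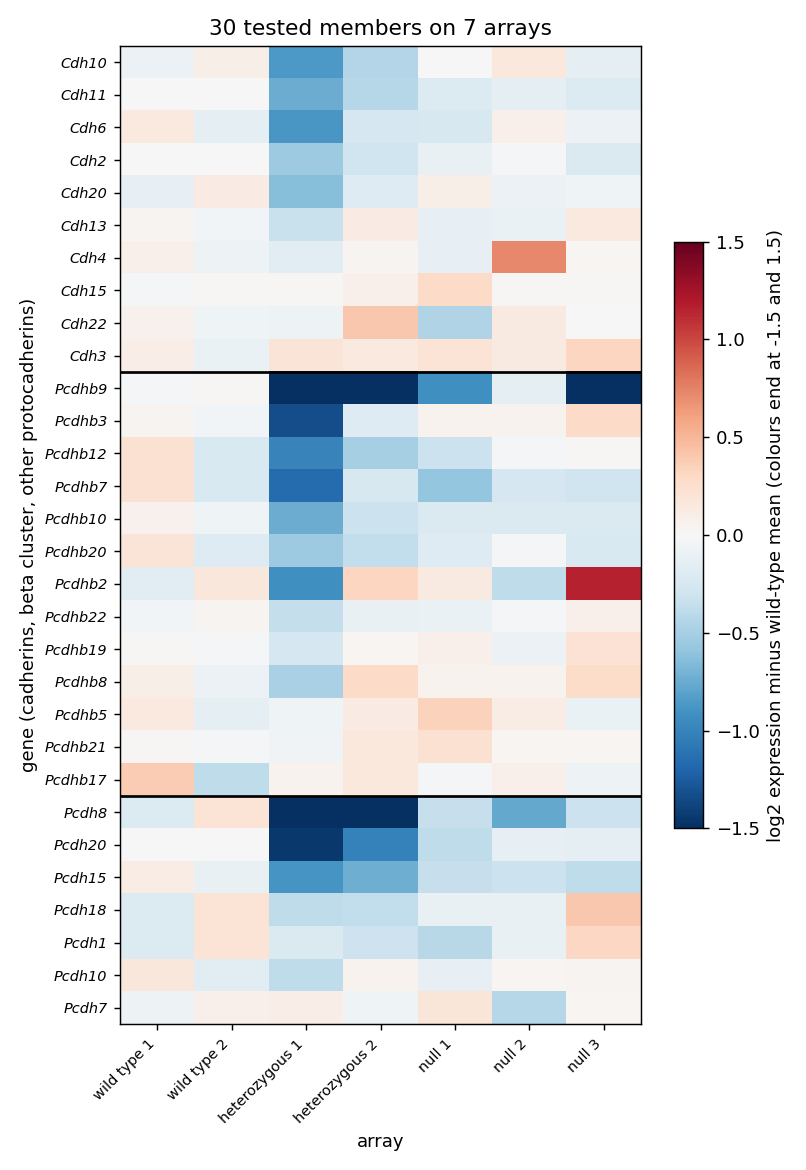
Log2 expression minus the wild-type mean (colour, ending at -1.5 and 1.5) of the 30 tested members (rows, by class) on the 7 arrays (columns). Blue is below wild type: heterozygous array 1 is below both wild-type arrays in 25 members, heterozygous array 2 in 17, and the 3 null arrays in 15, 12 and 10.

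Without heterozygous array 1 and null array 1, 0 members were called in any comparison, and 0 of all 9243 genes. The differences from wild type then were -3.29 for Pcdhb9 (adjusted p = 0.144), -1.73 for Pcdh8 (0.105), -1.02 for Pcdh20 (0.0722), -0.73 for Pcdh15 (0.131) and -0.43 for Cdh11 (0.165), so each kept its direction. The median differences were -0.08 for cadherins, -0.12 for the beta cluster and -0.37 for the other protocadherins. For null against heterozygous tumours the differences were 2.33 for Pcdhb9 (adjusted p = 0.273), 1.18 for Pcdh8 (0.217), 0.89 for Pcdh20 (0.114), 0.44 for Cdh10 (0.357) and 0.38 for Pcdh15 (0.329). As single arrays were left out, the number of members lower in heterozygous tumours was 1 without wild-type array 1, 0 without wild-type array 2, 2 without heterozygous array 1, 9 without heterozygous array 2 and 4 without any 1 null array. Where a group was left with a single array, that array was assumed to vary like those of the other groups. Shares over all genes are not given for the counts with 1 array left out, which do not set the members apart.

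Between null and wild-type tumours, 0 of the 30 members and 0 of all 9243 genes passed the threshold. With limma, 2 members, Pcdh8 and Pcdh15, had an unadjusted p under 0.05, against 5.14% of genes, and the unmoderated linear model also called 0. The difference was below 0 for 19 members, against 50.2% of genes, and its median was -0.02. In 8 members all null arrays lay below both wild-type arrays (Cdh2, Cdh11, Pcdh8, Pcdh15, Pcdh20, Pcdhb7, Pcdhb9 and Pcdhb10), where 11.0% of genes did. In 3 they lay above (Cdh3, Pcdhb3 and Pcdhb21), where 10.7% did. The 95% interval of Pcdhb9 leaves differences from -1.92 to 0.03 within the measured error, so a missing call does not show equal levels.

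Against heterozygous tumours, null tumours had 5 members higher and 0 lower, where 5.0% and 3.96% of all genes were, 8.96% in all. The difference was below 0 for 3 members, against 43.0% of genes. All null arrays lay above both heterozygous arrays in 15 members and below them in 0, against 25.7% and 17.9% of genes. The median difference was 0.31 over members and 0.04 over all genes. This comparison uses the same heterozygous arrays as the one with wild type, so they are not separate evidence. The number of members called was 3 without either wild-type array, 0 without heterozygous array 1, 6 without heterozygous array 2, and 2, 3 and 2 without null arrays 1, 2 and 3. Shares over all genes are not given for these counts either. An F test over the 3 genotypes called Pcdh8, Pcdh20, Pcdhb9 and Pcdh15 (adjusted p between 0.0130 and 0.0278), where 5.65% of genes passed.

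Genes that work with cadherins were compared from lists. Over all genes tested, 5.95% were lower and 4.20% higher in heterozygous than in wild-type tumours, with a median of -0.04. In null against heterozygous tumours 5.0% were higher and 3.96% lower. The counts of the lists were not tested against these shares. Of 16 measured partners in cadherin junctions, 5 fell and 1 rose in heterozygous against wild-type tumours, with a median of -0.49. Ctnnb1, beta-catenin, which links the cadherin tail to alpha-catenin and also carries Wnt signals, fell by 0.51 (adjusted p = 0.0321). Ctnnd1, p120 catenin, which keeps cadherins at the surface, fell by 0.71 (0.0220), and its neural relative Ctnnd2 also fell by 0.71 (0.0288). The neural alpha-catenin Ctnna2 fell by 0.82 (0.0421) and vinculin, Vcl, by 0.63 (0.0317). Ctnna1, the alpha-catenin of most other tissues, rose by 0.67 (0.0413). Against heterozygous tumours, null tumours had more Ctnnd1 (0.55), Ctnnd2 (0.64) and Vcl (0.71) and less Ctnna1 (-0.80).

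The other lists held fewer changes. Of 7 other cadherin superfamily genes, the calsyntenins Clstn1 (-0.64) and Clstn3 (-0.82) fell in heterozygous tumours and the rest did not pass, and Clstn1 was higher in null than in heterozygous tumours (0.65). Of 14 intracellular partners of protocadherins, Abi1 (-0.51), of the actin-regulating WAVE complex, and Marcks (-0.57) fell. Of 5 regulators of cadherin transcription, 13 regulators of the clustered protocadherins and 12 proteases that cleave cadherins, 0 changed. Zeb1, a repressor of E-cadherin, had a difference of -0.39 (adjusted p = 0.132), and Ctcf, which organises the clusters, of -0.01. Against wild type, null tumours changed in 0 genes of these lists.

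Some lists of cell-type markers were higher in heterozygous than in wild-type tumours. Over all genes tested, 4.20% were higher and 5.95% lower. The counts of the marker lists were not tested against these shares. Of 17 measured microglia and macrophage genes, 13 were higher and 0 lower in heterozygous than in wild-type tumours, among them Ptprc (1.40), Csf1r (1.29) and Cd53 (1.72). The mean log2 value of that list was 5.68 and 5.30 in wild type, 6.59 and 6.96 in heterozygous and 5.48 to 5.93 in null tumours. The heterozygous arrays did not overlap the others. Aif1, Itgam and Mrc1 stayed below the filter. Of 12 astrocyte genes, 3 rose (Gfap 1.49, Aldh1l1 1.46, Sox9 1.34) and S100b fell by 0.76. The mean of the astrocyte list was 8.19 and 8.13 in wild type, 8.67 and 8.88 in heterozygous and 7.94 to 8.45 in null tumours. Of 11 genes of fibroblasts, meninges and choroid plexus, Col1a2, Col3a1 and Foxj1 rose. The mean of this list was 6.35 and 6.62 in wild type, 7.54 and 7.25 in heterozygous and 6.6 to 7.96 in null tumours.

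The mean of the progenitor and glioma list went the other way. Of 12 genes of oligodendrocyte progenitors and PDGF gliomas, Olig2 (-0.67), Pdgfra (-0.65), Cspg5 (-0.84) and Ptprz1 (-0.61) fell in heterozygous tumours and Nes (0.89) rose. The list's mean was 11.56 and 11.60 in wild type, 11.14 and 11.32 in heterozygous and 11.42 to 11.53 in null tumours, so heterozygous arrays were lowest, and array 1 lower than array 2. All 12 passed the filter, as did the 12 astrocyte and 10 myelin genes on the array, so passing it does not identify the cells. Of 12 neuronal genes Snap25 (-0.84) and Gad1 (-1.24) fell, while Rbfox3, Syt1 and Gad2 were below the filter on these arrays, and of 12 endothelial and pericyte genes Tagln rose. Of 10 myelin genes, 0 changed. Their mean was 9.57 on both wild-type arrays, 10.29 and 10.26 in heterozygous and 9.34 to 10.07 in null tumours. Against wild type, null tumours changed in 0 genes of the marker lists. The part of these marker differences in the falls of Pcdhb9, Pcdh8, Pcdh20, Pcdh15 and Cdh11 was not tested.

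**Figure D5:**
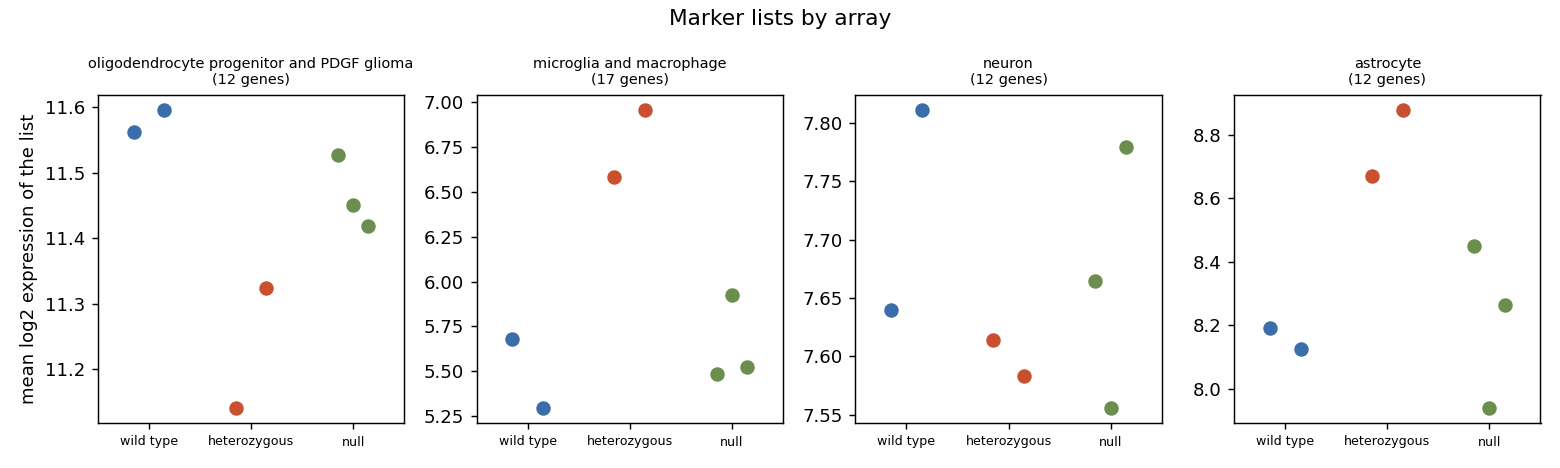
Mean log2 expression (vertical axis, a separate scale in each panel) of 4 marker lists by genotype (horizontal axis), 1 point per array. The heterozygous arrays are lowest for oligodendrocyte progenitor genes (11.14 and 11.32) and highest for microglia and macrophage genes (6.59 and 6.96) and astrocyte genes (8.67 and 8.88).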

How the data were processed

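RNA of sorted glioma cells was measured on 7 Affymetrix arrays (2 wild type, 2 heterozygous, 3 null); 75 ng of total RNA per array was labelled by a kit primed from the 3' end of transcripts, per the labels' protocols. The deposited values are log2 expression, made with RMA and Partek 6.6 per the submitters' processing notes. RMA sets all arrays to a common distribution, so a shift of all genes cannot be seen. Of 22626 probe sets other than controls, 20380 named 1 gene. The brightest per gene was used, and genes above the 30th percentile on at least 2 arrays (9243) were fitted with limma 3.58.1 in R 4.3.3, with a mean per genotype and 4 residual degrees of freedom. Tests were two-sided, with Benjamini-Hochberg adjustment over these genes. The fit was tested on simulated data. The number of arrays limits the precision. Signal was used to choose a probe set per gene and the genes described by array, and levels of different genes were not compared.

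The members and gene lists were chosen with earlier results of these data known. Per-array values are given for genes past the threshold in any comparison and for up to 3 of the brightest genes of each class (type I and II cadherins, other cadherins, clustered and other protocadherins). Other members are given by difference or range. From the lists, genes past the threshold are named. Genes beside Pcdhb9 and the alpha-cluster probe sets were added for their position. Alternatives covered the filter, the choice of probe set, normalization, moderation, array quality, a replicate block and left-out arrays.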

Additional observations from a re-analysis of the deposited data

How the results depend on the processing

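The counts of called members were recomputed under each alternative, except that the F test over 3 genotypes has no form with only 2 groups of arrays. Shares over all genes are not given here for these counts, so a change in them may not be particular to the members. The count of 5 for heterozygous against wild type became 0 with an unmoderated linear model, 0 without heterozygous array 1 and null array 1, and 2 with only the arrays compared, and leaving out 1 array gave 0 to 9. The count of 5 for null against heterozygous became 3 with no filter on dim genes, with every probe set tested, with array quality weights, with the 3'-5' covariate and with only the arrays compared, 0 with the unmoderated model, 0 without the same pair of arrays, and 0 to 6 without 1 array. The F test's 4 became 0 under the unmoderated model, 0 without that pair and 0 to 4 without 1 array. For null against wild type the count was 0 in every setting run. With the replicate block the counts were 3 for heterozygous against wild type, 1 for null against heterozygous and 1 for the F test. Deviations from the group means, on arrays with the same number, correlated from -0.41 to 0.11. In a group of 2 arrays these deviations mirror each other, so they cannot show whether the numbers pair the tumours. Of the log2 differences followed (heterozygous minus wild type in all 30 tested members, null minus heterozygous in 11 and null minus wild type in 4), those of called members kept their direction. Others turned. In heterozygous minus wild type without the pair, Cdh13 was 0.13, Cdh4 0.040, Pcdh10 0.055, Pcdh7 -0.061, Pcdhb19 0.028, Pcdhb2 0.32 and Pcdhb8 0.28. With the 3'-5' covariate, Cdh4 was 0.059, Pcdh7 -0.065, Pcdhb21 -0.0054 and Pcdhb5 -0.064. With quantile normalization again Pcdhb5 was -0.040, and without probe sets ending in _x_at or _s_at Pcdh10 was 0.084. In null minus heterozygous without the pair, Cdh13 was -0.10, Pcdh10 -0.019 and Pcdhb7 -0.037, and with the block Cdh13 was -0.011. Without 1 array, heterozygous minus wild type ran from -0.33 to 0.13 for Cdh13, -0.078 to 0.41 for Cdh22, -0.17 to 0.040 for Cdh4, -0.39 to 0.055 for Pcdh10, -0.061 to 0.099 for Pcdh7, -0.28 to 0.49 for Pcdhb17, -0.25 to 0.028 for Pcdhb19, -0.92 to 0.32 for Pcdhb2, -0.052 to 0.16 for Pcdhb21, -0.12 to 0.17 for Pcdhb5 and -0.49 to 0.28 for Pcdhb8. Null minus heterozygous ran from -0.15 to 0.30 for Cdh13, -0.072 to 0.37 for Pcdh10 and -0.14 to 0.78 for Pcdhb7, and the beta cluster's median null minus wild type from -0.062 to 0.12. The cause of these changes was not tested. With 2 or 3 arrays per genotype, the signal of the 17 dim members allows no statement about them.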
